A study of Homo sapiens with 8 samples.

Results

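A set of 9 interleukin receptor genes was followed over a chromium time course: IL2RA, IL2RG, IL4R, IL6R, IL7R, IL10RA, IL13RA1, IL21R and IL27RA. They were chosen by symbol, with earlier results of these data known. All 9 were found among the 23710 gene symbols of the count tables. All 9 also passed the filter on low counts, which kept 12536 genes. The RNA came from a lymphoblastoid cell line, which is a culture of human B cells made immortal with Epstein-Barr virus, and all 8 libraries came from the same line. The 4 groups, with 2 libraries each, were control cells without chromium, cells exposed to hexavalent chromium at 5 µM for 24 h, and cells 3 days and 7 days after that treatment. The control was taken before exposure began, so exposure and time in culture cannot be told apart in any comparison with it. The sample labels count the days from treatment, but the design text counts from the start of exposure, and the origin of the day count is not settled here. The labels call the replicates biological, but nothing says that they were separate cultures, so p-values measure the spread between these libraries.

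Interleukin receptors sit in the cell membrane as pairs or triplets of chains. IL2RA (CD25) is the alpha chain that gives the IL-2 receptor its high affinity, while IL2RB and the common gamma chain IL2RG carry the signal. IL2RG is also shared by the receptors for IL-4, IL-7, IL-9, IL-15 and IL-21. The chains have no enzyme activity of their own: bound JAK kinases phosphorylate STAT factors, which enter the nucleus. In B cells these receptors take part in growth, class switching and differentiation, and CD25 is a marker of lymphocyte activation.

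Between 9478459 and 11110830 reads per library were counted to genes, and levels are given as CPM, read counts scaled to library size. All 12 B cell markers examined reached 10 CPM, with a summed level of 4518 to 7328 CPM per library. T and NK cell markers summed to 1.43 to 5.08 CPM over 15 genes, with CD3D, CD3G, CD8A and NCAM1 at 0 in all libraries. Myeloid markers summed to 5.89 to 14.9 CPM over 10 genes, with FCGR1A, S100A8 and S100A9 at 0. The libraries at 3 and 7 days stood apart by replicate number: for 9652 genes, 77.0% of those tested, both libraries numbered 1 lay on one side of both numbered 2. Values at these times are therefore given library by library. Reads that fell in no gene feature were 39.4% and 36.5% in the libraries numbered 1 at 3 and 7 days. They were 46.1% and 45.3% in those numbered 2, and 44.4% to 51.5% in the control and 24 h libraries. The part of this difference in the split by number was not tested. No gene passed an adjusted p under 0.05 in any comparison in edgeR's quasi-likelihood test with Benjamini-Hochberg adjustment (0.0% of 12536 genes). At an unadjusted p under 0.05 that test gave 22 genes (0.175%) at 24 h, 663 (5.29%) at 3 days and 619 (4.94%) at 7 days, each against control. These counts rested on single libraries: with 1 left out, the 24 h count was 17 to 35, highest without 24 h replicate 2. The 3 day count was 188 without control replicate 2, 337 without 3 days replicate 1, 410 without control replicate 1 and 1898 without 3 days replicate 2. The 7 day count was 191 without control replicate 2, 289 without 7 days replicate 1, 374 without control replicate 1 and 1734 without 7 days replicate 2. With both libraries of each group, the test gave 764 (6.09%) at 3 days and 747 (5.96%) at 7 days against 24 h, 31 (0.247%) at 7 days against 3 days, and 446 in the joint test over the 3 exposed groups; without 1 library these were 266 to 2269, 234 to 1971, 15 to 181 and 217 to 1042. limma-voom called 0 genes in each of these. DESeq2 on all genes called 0, 9 and 15 genes at 24 h, 3 days and 7 days against control, with none of the 9 receptors among them. It called 19 and 22 genes at 3 and 7 days against 24 h, 0 at 7 days against 3 days and 65 in the joint test.

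IL2RA was the 1 receptor gene of the 9 with a lower level in every late library (3 and 7 days) than in every early one (control and 24 h). It stood at 22.9 and 24.2 CPM in the control libraries, 25.03 and 21.6 at 24 h, 10.9 and 11.8 at 3 days, and 14.5 and 11.9 at 7 days. In bulk RNA, fewer cells with IL2RA and less IL2RA RNA per cell cannot be told apart. This order of all 4 late below all 4 early libraries was shared by 932 genes, 7.43% of those tested. The mean was 23.5 ± 0.87 CPM for control cells, 23.3 ± 2.44 for 24 h, 11.3 ± 0.62 for 3 days and 13.2 ± 1.84 for 7 days (SD, n = 2 each). These levels rest on 106 to 261 reads per library. The read count was 106 in replicate 1 at 3 days (95% exact Poisson interval 86.8 to 128), against 261 in control replicate 1 (230.3 to 294.7), and these intervals cover counting error only.

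At 3 days IL2RA was at 0.482 times the control level, a log2 fold change of -1.05 (SE 0.24, 95% interval -1.60 to -0.50). Its edgeR p was 0.00222, the 23rd smallest of the 12536 genes, and its adjusted p was 0.843, so the difference did not pass. Since the gene was chosen with earlier results of these data known, this rank is a description only. At 7 days the log2 fold change from control was -0.84 (SE 0.24, interval -1.39 to -0.29, edgeR adjusted p = 0.851). At 24 h it was -0.02 (interval -0.55 to 0.52, edgeR adjusted p = 1). Set against 24 h in place of control, the values were -1.04 at 3 days (edgeR adjusted p = 0.726) and -0.82 at 7 days (edgeR adjusted p = 0.736), with both libraries below both 24 h libraries, as in 17.6% and 19.1% of all genes. Between the late groups, 7 days was higher than 3 days by 0.21 (interval -0.34 to 0.77), with both 7 day libraries above both 3 day ones, as in 5.24% of all genes (6.41% lay below). In the joint test over 24 h, 3 days and 7 days the edgeR adjusted p was 0.933. It was 0.0433 in DESeq2 on the genes that edgeR tested and 0.0814 in DESeq2 on all genes, so the joint call depended on the tool and on the genes included.

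**Figure D1:**
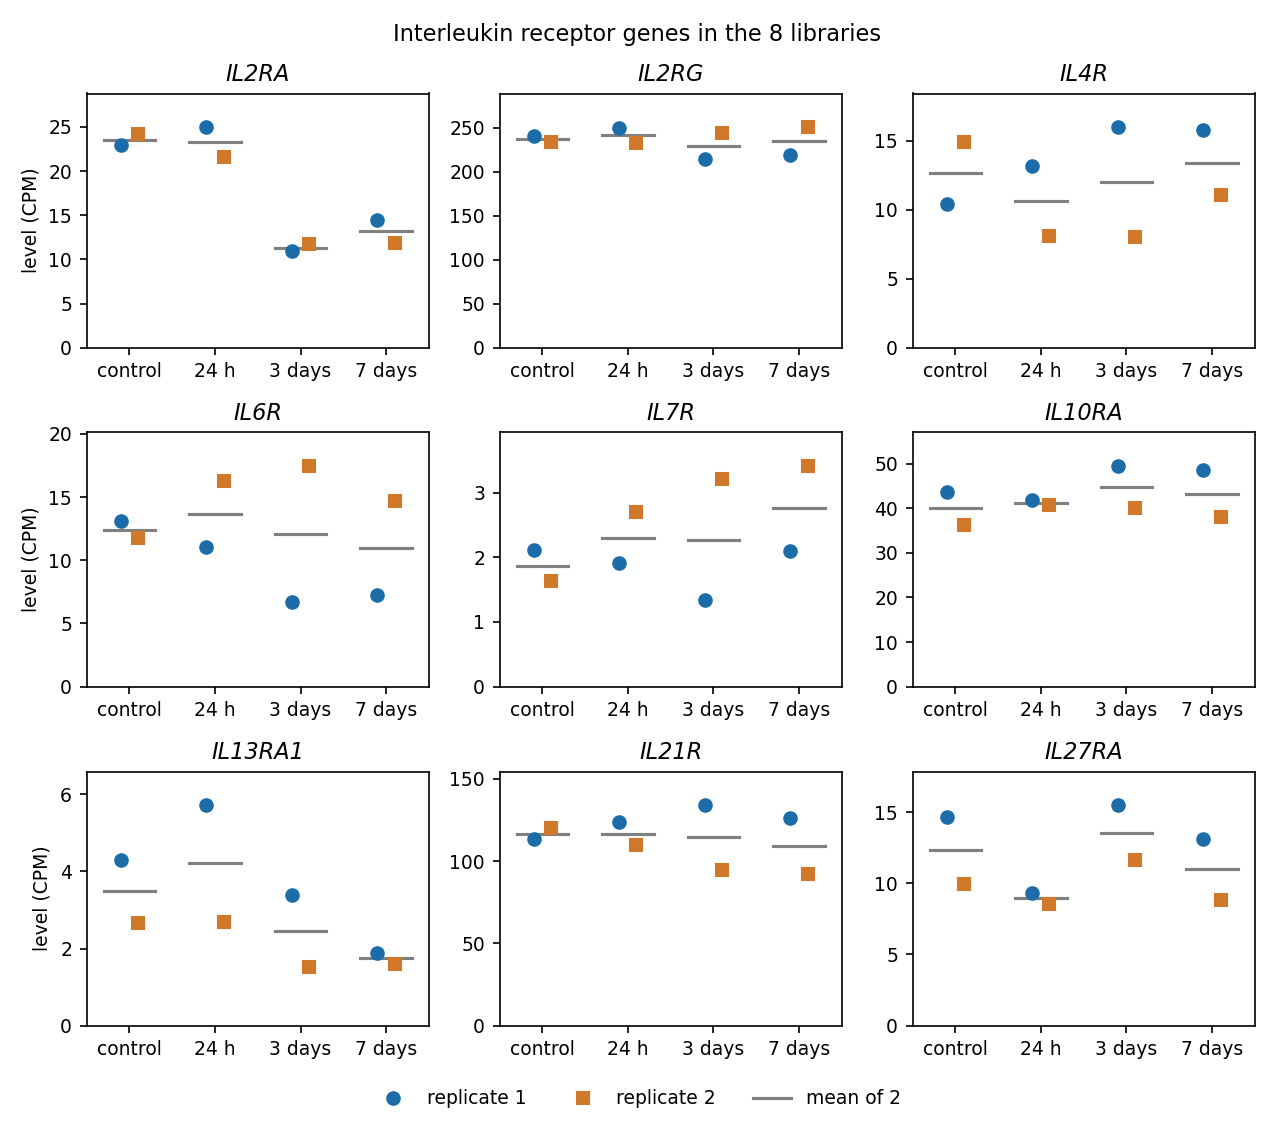
Level of each receptor gene in CPM (y axis, from 0) in each library of the 4 groups (x axis); circles are replicate 1, squares replicate 2 and lines the mean of 2. IL2RA lies between 21.6 and 25.03 CPM in the early libraries and between 10.9 and 14.5 CPM in the late ones.

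The bases just upstream of the start of transcription are printed for IL2RA, for the other receptor genes with a match to the NF-kB consensus (IL4R and IL27RA), and for IL2RG as a gene with none. They are shown because NF-kB is known, as background, to act on IL2RA transcription in activated lymphocytes; its part in these levels was not tested. Each is the 250 bases before the gene's start, 5′ to 3′ on the gene's strand, from RefSeq on GRCh38.p14, and capitals mark matches to the NF-kB consensus on either strand, with overlapping matches joined. The windows are chr10:6062368-6062617 on the minus strand for IL2RA, chr16:27313724-27313973 on the plus strand for IL4R, chr19:14031512-14031761 on the plus strand for IL27RA and chrX:71111578-71111827 on the minus strand for IL2RG.
IL2RA: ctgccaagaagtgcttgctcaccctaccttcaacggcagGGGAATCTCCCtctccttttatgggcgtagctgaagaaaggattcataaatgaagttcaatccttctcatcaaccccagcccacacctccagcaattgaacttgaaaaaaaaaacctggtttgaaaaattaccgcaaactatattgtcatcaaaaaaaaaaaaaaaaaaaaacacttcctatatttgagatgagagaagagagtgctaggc
IL4R: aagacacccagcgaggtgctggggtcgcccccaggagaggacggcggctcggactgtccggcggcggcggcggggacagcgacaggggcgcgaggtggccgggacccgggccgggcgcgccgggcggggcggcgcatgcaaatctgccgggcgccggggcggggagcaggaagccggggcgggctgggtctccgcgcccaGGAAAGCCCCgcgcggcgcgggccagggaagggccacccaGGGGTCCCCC
IL27RA: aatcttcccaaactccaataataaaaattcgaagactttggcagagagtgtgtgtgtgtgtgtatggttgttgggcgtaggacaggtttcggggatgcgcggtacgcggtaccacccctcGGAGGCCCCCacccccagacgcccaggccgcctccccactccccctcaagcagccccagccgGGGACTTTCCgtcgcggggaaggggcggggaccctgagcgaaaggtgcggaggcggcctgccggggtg
IL2RG: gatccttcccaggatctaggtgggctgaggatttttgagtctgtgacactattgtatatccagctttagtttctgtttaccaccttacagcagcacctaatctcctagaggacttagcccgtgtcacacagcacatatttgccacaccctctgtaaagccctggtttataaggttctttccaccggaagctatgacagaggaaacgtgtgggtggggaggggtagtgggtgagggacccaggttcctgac

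The IL2RA match, GGGAATCTCCC, lay 211 to 201 bases upstream of the start. The consensus was present in the windows of 3 of the 9 receptor genes and in 9.95% of all 34943 windows of 250 bases. The STAT motif TTCNNNGAA, searched on both strands, was in 0 of 9 and in 6.56% of all windows. The AP-1 motif TGANTCA was in 1 of 9, IL10RA, and in 6.59% of all windows. The shares over all windows were not matched for the content of G and C bases. This ran from 40.0% in the IL2RA window to 80.8% in the IL4R window over the 9 receptor genes. A match is a string of letters and does not show binding.

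IL2RG and IL2RB, the signalling chains that pair with IL2RA, did not have all late libraries below all early ones. IL2RG, the common gamma chain, stood at 240.0 and 233.3 CPM in control, 249.99 and 232.3 at 24 h, 214.2 and 244.2 at 3 days, and 218.8 and 251.1 at 7 days. The groups overlapped, and the log2 fold change from control was -0.05 at 3 days (interval -0.50 to 0.40) and -0.01 at 7 days (interval -0.46 to 0.44). IL2RB, the beta chain, named here as the known partner although it is not one of the 9, averaged 64.0 ± 8.42 CPM at 3 days and 65.1 ± 2.66 in control (SD, n = 2 each). At 7 days IL2RB stood at 60.5 and 55.7 CPM, against 67.0 and 63.3 CPM in control, so both libraries lay below both controls, as in 17.9% of all genes (log2 fold change -0.17, edgeR adjusted p = 0.877). Within a library, IL2RA gave 9.55 and 10.4 reads per 100 IL2RG reads in control, 10.01 and 9.29 at 24 h, 5.09 and 4.82 at 3 days, and 6.61 and 4.72 at 7 days. Per 100 IL2RB reads there were 34.2 and 38.2 in control, 44.2 and 32.1 at 24 h, 15.6 and 20.3 at 3 days, and 23.9 and 21.3 at 7 days. Both ratios were lower in every late library than in every early one, and neither depends on the scaling of library size. From lowest to highest library IL2RG differed by 1.17 times and IL2RB by 1.26 times. The ratios therefore mostly restate the order of the IL2RA levels, which 7.43% of all genes share.

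The other receptors of the common gamma chain family had no late pattern of this kind. IL21R, which binds IL-21, a driver of plasma cell formation, stood at 113.2 and 119.9 CPM in control, 123.9 and 109.6 at 24 h, 134.3 and 94.8 at 3 days, and 126.1 and 92.3 at 7 days. In each late group 1 library lay above both control libraries and the other below both, and the log2 fold change was -0.02 at 3 days and -0.09 at 7 days. IL4R, the chain that binds IL-4 and also serves the IL-13 receptor, stood at 10.5 and 14.9 CPM in control, 13.2 and 8.09 at 24 h, 16.0 and 8.03 at 3 days, and 15.8 and 11.1 at 7 days. All groups overlapped, with log2 fold changes of -0.26, -0.08 and 0.08 at 24 h, 3 days and 7 days. IL7R, the IL-7 receptor alpha chain of early lymphocytes, was a low gene, at 1.34 to 3.42 CPM and 13 to 36 reads per library. Its log2 fold change at 7 days was 0.55, with an interval from -0.69 to 1.8 that holds 0.

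IL13RA1, which joins IL4R to form the type II IL-4 receptor, was a low gene with 16 to 57 reads per library. It stood at 4.305 and 2.66 CPM in control, 5.73 and 2.70 at 24 h, 3.39 and 1.52 at 3 days, and 1.88 and 1.61 at 7 days. Both 7 day libraries lay below both control libraries, and the 3 day libraries overlapped control. The log2 fold change at 7 days was -1.0 (SE 0.57, interval -2.32 to 0.32, edgeR adjusted p = 0.851), and at 3 days -0.52 (interval -1.79 to 0.76). The 3 day value was -1.20 without 3 days replicate 1, -0.04 without 3 days replicate 2, -0.12 without control replicate 1 and -0.82 without control replicate 2. The 7 day value was -0.61 without control replicate 1 and -1.30 without control replicate 2. Against 24 h, the 7 day value was -1.27 (interval -2.58 to 0.05, edgeR adjusted p = 0.736). The IL13RA1 interval at 7 days covers both 0 and the IL2RA value.

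IL6R and IL27RA bind IL-6 and IL-27 and both signal with the shared chain gp130, encoded by IL6ST. IL6R stood at 13.1 and 11.8 CPM in control, 11.1 and 16.3 at 24 h, 6.68 and 17.5 at 3 days, and 7.29 and 14.7 at 7 days. The late IL6R libraries numbered 1 were the lowest of the 8, and a mean over a late group hides this: the log2 fold change from control at 3 days was -0.04 with both libraries, 0.49 without replicate 1 and -0.90 without replicate 2. At 7 days it was -0.18 with both, 0.24 without replicate 1 and -0.75 without replicate 2. IL27RA stood at 14.7 and 9.93 CPM in control, 9.35 and 8.56 at 24 h, 15.5 and 11.6 at 3 days, and 13.1 and 8.84 at 7 days. Both 24 h libraries of IL27RA lay below both control libraries, with a log2 fold change of -0.46 (interval -1.22 to 0.30, edgeR adjusted p = 1). This was -0.15 without control replicate 1 and -0.71 without control replicate 2. Both 3 day libraries lay above both 24 h libraries, as in 17.0% of all genes, with a log2 fold change of 0.60 (interval -0.16 to 1.36, edgeR adjusted p = 0.757). IL6ST, named as the partner chain, stood at 109 and 202 CPM in control and 271 and 145 at 24 h, so replicates of the same group differed by more than the group means did.

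IL10RA, the chain that binds IL-10, stood at 43.7 and 36.3 CPM in control, 41.8 and 40.7 at 24 h, 49.5 and 40.0 at 3 days, and 48.5 and 38.1 at 7 days. The groups overlapped, and the log2 fold change was 0.16 at 3 days (interval -0.37 to 0.70) and 0.11 at 7 days (interval -0.42 to 0.65). Its partner IL10RB stood higher, at 124 and 147 CPM at 3 days and 132 and 136 CPM at 7 days, against 107 and 109 CPM in control (log2 fold changes 0.33 and 0.31, edgeR adjusted p = 0.843 and 0.851). At 24 h IL10RB stood at 129.9 and 114.6 CPM. Each of the 3 exposed groups of IL10RB thus lay above both control libraries. Taken one at a time, 11.4%, 16.7% and 16.6% of all genes did so at 24 h, 3 days and 7 days. The share that did so in all 3 was not counted, and the 3 comparisons share the control libraries.

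**Figure D2:**
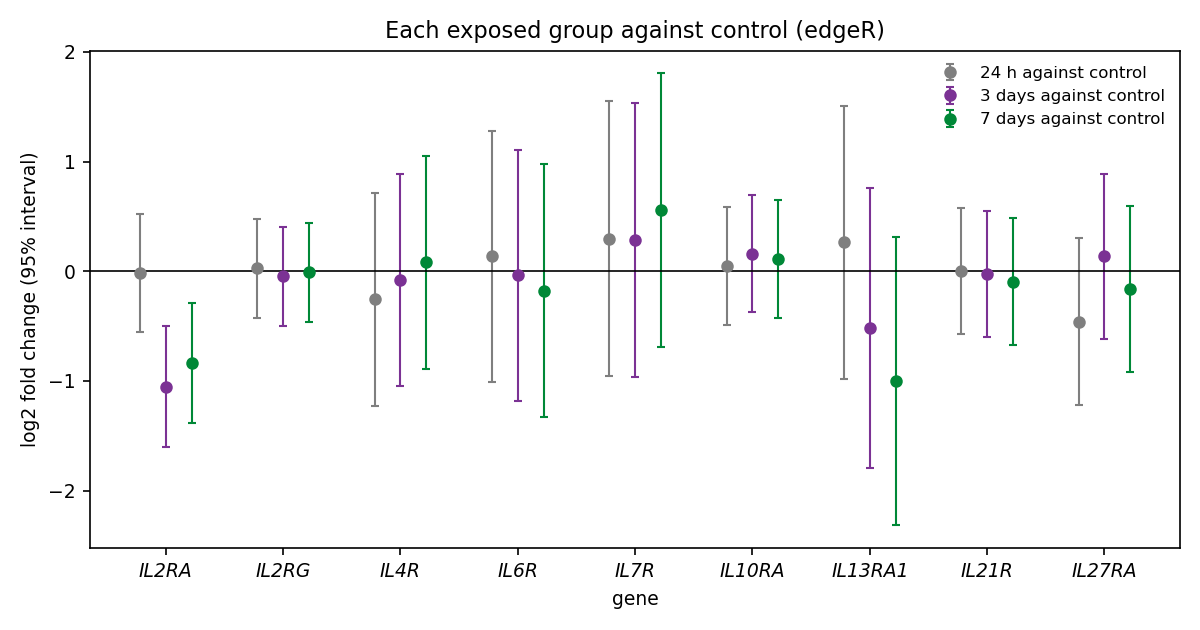
Log2 fold change of each receptor gene (y axis) at 24 h, 3 days and 7 days, each against control, with 95% intervals from edgeR; genes are on the x axis. The IL2RA intervals at 3 days (-1.60 to -0.50) and 7 days (-1.39 to -0.29) do not reach 0, and those of the other 8 genes do. The intervals are not adjusted for the number of genes tested. An unadjusted edgeR p under 0.05 was reached by 5.29% of all genes at 3 days and 4.94% at 7 days. The lowest edgeR adjusted p of the 9 genes was 0.843 at 3 days and 0.851 at 7 days.

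Separation of the groups was counted over the 9 receptor genes. At 24 h both libraries lay below both control libraries in 1 gene, IL27RA, where 12.5% of all genes did, and above in 0, where 11.4% did. At 3 days 1 gene, IL2RA, lay below, where 17.2% of all genes did, and 0 above, where 16.7% did. At 7 days 2 genes, IL2RA and IL13RA1, lay below, where 17.9% of all genes did, and 0 above, where 16.6% did. The median log2 fold change of the 9 genes was 0.03 at 24 h, -0.04 at 3 days and -0.09 at 7 days. These counts are near the shares over all genes. The 3 comparisons share the control libraries.

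In the late libraries most receptor genes were ordered by replicate number. For 8 of the 9 genes, both late libraries numbered 1 lay on one side of both numbered 2, where 77.0% of all genes did. Number 1 was the higher in IL4R, IL10RA, IL13RA1, IL21R and IL27RA, and the lower in IL2RG, IL6R and IL7R. The difference of replicate 1 from replicate 2, in log2 CPM, was -1.36 for IL6R at 3 days and -0.99 at 7 days. For IL7R it was -1.15 and -0.66, and for IL4R 0.98 and 0.51. IL2RA was the exception among the 9, with -0.11 at 3 days and 0.28 at 7 days. Of 6 plasma cell markers, 2 had a fitted value above control at 3 days and 4 below, with a median log2 fold change of -0.14, and their summed level was 4904 to 9482 CPM at 3 days and 4993 to 8621 CPM at 7 days, against 8262 to 8671 CPM in control. SDC1 had all 4 late libraries above all 4 early ones, where 5.93% of all genes did, and number 1 above number 2, by 1.20 in log2 CPM at 3 days and 1.21 at 7 days. XBP1, MZB1, IRF4 and IGJ ran the other way, with number 1 below number 2 (XBP1 by -1.55 and -1.32), and PRDM1 was not ordered by number. Of the 12 B cell markers, 3 (CR2, CD40 and MS4A1) had all 4 late libraries below all 4 early ones, where 7.43% of all genes did. The 12 markers summed to 4518 to 7328 CPM at 3 days and 4733 to 7065 CPM at 7 days, against 5991 to 6252 CPM in control. The part of these markers in the receptor values was not tested.

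**Figure D3:**
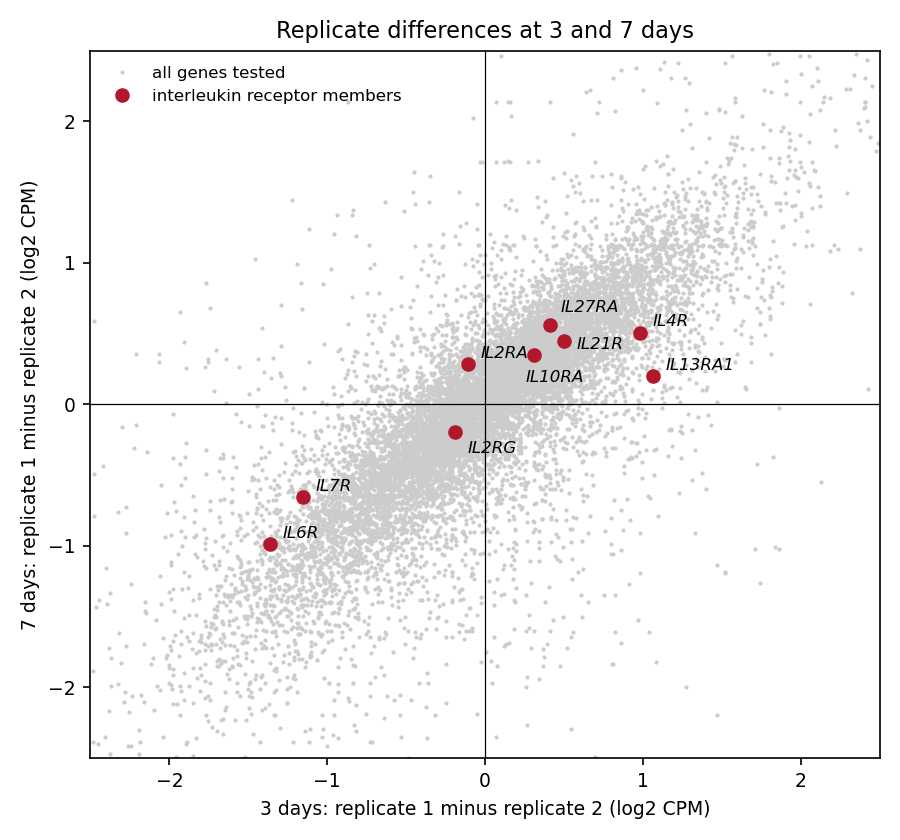
Replicate 1 minus replicate 2 in log2 CPM at 3 days (x axis) and at 7 days (y axis), for all tested genes (grey) and the 9 receptor genes (red), with both axes cut at 2.5 in either direction (214 genes lie outside). IL6R (-1.36, -0.99) and IL7R (-1.15, -0.66) lie at the lower left, IL4R (0.98, 0.51) at the upper right and IL2RA (-0.11, 0.28) near the centre.

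The levels of the chains were ordered per length, in CPM per kb of exon sequence, with lengths from GENCODE 29, since the annotation behind the counts is not given in the sources used here. IL2RG was the highest of the 9, at a mean of 153.5 over the 8 libraries (range 139.6 to 163.7). IL21R followed at 22.4 (18.1 to 26.3) and IL10RA at 11.5 (9.83 to 13.4), and none of these 3 ranges overlap. IL2RA came next at 5.62 (3.43 to 7.88), and its range overlaps those of IL27RA at 3.87 and IL4R at 3.18. IL6R at 2.04 overlaps IL4R, IL13RA1 at 0.70 overlaps IL6R, and IL7R at 0.47 (0.27 to 0.70) overlaps IL13RA1. Among partner chains, IL10RB was at 63.6, IL6ST at 17.9 and IL2RB at 15.1 CPM per kb. Per length, the IL2 receptor alpha chain was thus present at a lower level than both chains it pairs with, in each of the 8 libraries.

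**Figure D4:**
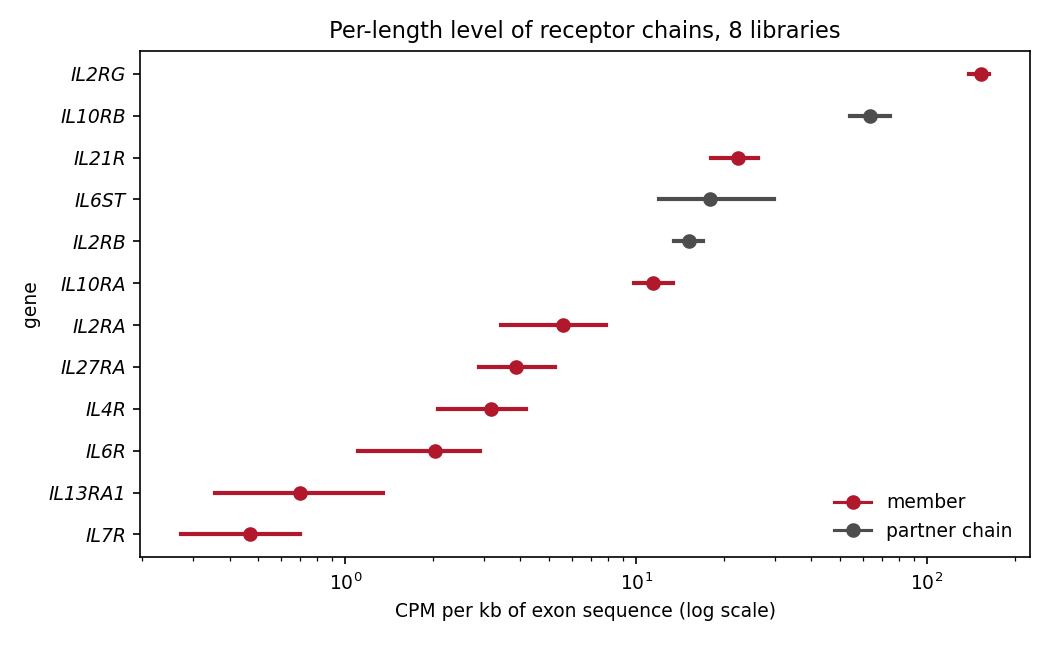
Per-length level of the 9 receptor genes (red) and 3 partner chains (grey), in CPM per kb of exon sequence on a log axis (x axis), with genes on the y axis; points are means and lines the range over 8 libraries. IL2RG (153.5) is highest and IL7R (0.47) lowest. The IL2RA line runs from 3.43 to 7.88, and the lines of IL13RA1, IL6R, IL7R and IL6ST are wider on this axis.

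Reads of overlapping genes could not be separated, because the strand setting is not given. In GENCODE 29 an antisense gene lies over IL2RA, IL4R, IL6R and IL21R, and a same-strand gene overlaps IL2RG. Small RNA genes lie on the same strand within IL2RA and IL13RA1, and IL13RA1 also overlaps a same-strand pseudogene. IL21R-AS1 had 0 reads in all 8 libraries. IL7R, IL10RA and IL27RA overlap no other gene there.

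Beyond the 9, 18 of 33 other interleukin receptor genes passed the filter. At 3 days 4 of these 18 had a fitted value above control and 14 below, the median log2 fold change was -0.20. Both libraries lay below both controls in 7, where 17.2% of all genes did, and above in 2, where 16.7% did. At 7 days 3 were higher and 15 lower, with a median of -0.21, against 0.00 over all genes tested. In 5 of the 18 all 4 late libraries lay below all 4 early ones, where 7.43% of all genes did: IL1R1, IL12RB2, IL17RB, IL18R1 and IL23R. IL18R1, a chain of the IL-18 receptor, had the highest correlation with IL2RA over the 8 libraries of these 5 (r = 0.93), and stood at 7.40 and 9.46 CPM at 3 days and 7.51 and 8.24 CPM at 7 days, against 17.0 and 18.2 CPM in control. Its log2 fold change was -1.06 at 3 days (SE 0.26, edgeR adjusted p = 0.843) and -1.16 at 7 days (SE 0.26, edgeR adjusted p = 0.851). IL12RB2, IL1R1 and IL23R had values of -1.59, -0.89 and -0.90 at 3 days. Of these, IL12RB2 was a low gene, with 9 to 61 reads per library. IL17RA was the 1 gene of the 18 with all late libraries above all early ones, at 32.5 and 21.9 CPM at 3 days, against 21.6 and 19.3 CPM in control, where 5.93% of all genes did so. No gene of the list passed the edgeR threshold (0 of 18).

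Among 12 ligand genes of these receptors, 4 passed the filter, and IL2 and IL21 themselves had 0 reads in all libraries. EBI3, a subunit of IL-27, stood at 35.8 and 25.7 CPM at 3 days and 38.2 and 30.3 CPM at 7 days, against 52.8 and 64.6 CPM in control (log2 fold changes -0.93 and -0.78, edgeR adjusted p = 0.843 and 0.851). IL15, a cytokine that signals through IL2RB and IL2RG, had values of -0.69 and -0.60. IL7 had -0.92 and -0.54, with overlapping groups at 7 days, and IL10 had -0.03 and 0.10. None of the 4 passed the test in edgeR.

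The JAK and STAT genes that carry the receptor signal were mostly lower in fitted value late in the course. At 3 days all 4 JAK genes were at or below control, with a median of -0.59, and 3 of the 4 had both libraries below both controls, where 17.2% of all genes did. JAK3, the kinase that binds IL2RG, stood at 37.4 and 46.5 CPM at 3 days and 29.9 and 51.9 CPM at 7 days, against 65.9 and 61.6 CPM in control (log2 fold changes -0.60 and -0.64). JAK2 was at -0.62 and TYK2 at -0.57 at 3 days, while JAK1 was at -0.00. At 7 days 3 of the 4 JAK genes were lower in fitted value and 1, JAK1, was higher, at 0.13. JAK1 stood at 265.9 and 294.6 CPM at 7 days, against 247.8 and 263.9 CPM in control. Both its 7 day libraries thus lay above both controls, as in 16.6% of all genes. All 7 STAT genes were lower in fitted value at 3 days and at 7 days, with medians of -0.48 and -0.46. Both libraries lay below both controls in 3 of the 7 at each time, and the others overlapped control. The shares over all genes were 17.2% at 3 days and 17.9% at 7 days. STAT4, which serves IL-12, was at -0.74 at 3 days, and STAT6, which serves IL-4, at -0.57. STAT2 was at -0.48, with overlapping groups. No JAK or STAT gene passed the edgeR threshold.

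Genes of the feedback inhibitors of JAK and STAT signalling were evenly split at 3 days, 9 higher and 9 lower of 18, with a median of 0.01. At 24 h 16 of 18 were higher in fitted value than control, with a median of 0.15, and 4 had both libraries above both controls, where 11.4% of all genes did. SOCS1, an inhibitor of JAKs, was at 0.78 at 24 h, with 3.42 and 2.79 CPM at 24 h against 2.46 and 1.13 CPM in control. It was a low gene, with 11 to 34 reads per library. PTPN1, PIAS2 and SOCS4 were at 0.02, 0.26 and 0.19 at 24 h. In 2 of the 18, PTPN1 and SOCS7, all 4 late libraries lay above all 4 early ones, where 5.93% of all genes did. PTPN1, a phosphatase that acts on JAKs, stood at 181.7 and 187.6 CPM at 3 days and 187.0 and 216.4 CPM at 7 days, against 163.8 and 151.4 CPM in control. Of 20 genes known to respond to STAT factors, 19 were tested, with 7 higher and 12 lower at 3 days and a median of -0.04. IL4I1, an amino acid oxidase gene named for its response to IL-4, stood at 22.9 and 16.1 CPM at 3 days and 22.1 and 17.9 CPM at 7 days, against 42.7 and 49.1 CPM in control. NFIL3, a transcription factor of lymphocytes, went the other way, with 14.1 and 17.8 CPM at 3 days and 19.8 and 18.5 CPM at 7 days, against 8.17 and 8.70 CPM in control. CCND2, a cyclin, was at -0.63 and PIM1, a kinase, at 0.49 at 3 days. The 4 interferon receptor genes had a median of -0.02 at 3 days, and none of these lists had a gene past the edgeR threshold.

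Genes of the NF-kB subunits and of inhibitors of the pathway were mostly lower in the late libraries. The subunits turn on inflammatory and survival genes in B cells. At 3 days 7 of 8 genes were lower than control in fitted value, with a median of -0.51. Both libraries of all 7 lay below both controls, where 17.2% of all genes did. The count pools subunits and inhibitors. RELA, a subunit gene, was the exception, at 49.5 and 53.6 CPM at 3 days, against 49.4 and 47.0 CPM in control. Both its 3 day libraries lay above both controls, as in 16.7% of all genes. Its 7 day libraries, at 55.4 and 48.9 CPM, overlapped control. NFKB2, the precursor of the p52 subunit, stood at 73.6 and 78.5 CPM at 3 days and 74.9 and 76.0 CPM at 7 days, against 146.5 and 150.6 CPM in control. Its log2 fold change was -0.97 at 3 days (SE 0.20, edgeR adjusted p = 0.843) and -0.98 at 7 days (SE 0.20, edgeR adjusted p = 0.851). REL was at -0.82 and -0.76, TNFAIP3, an inhibitor of the pathway, at -0.57 and -0.54, and NFKBIE, another inhibitor, at -0.48 and -0.72. A link between these genes and IL2RA was not tested.

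Genes with a profile like that of IL2RA were sought by Pearson correlation of log2 CPM over the 8 libraries, among 8158 genes with a mean of at least 10 CPM. The correlation is a description only, since the 8 libraries are shared by all genes and fall into an early and a late set. SPPL2A, an intramembrane protease, had the highest r at 0.998, followed by NTRK2, a neurotrophin receptor, at 0.988, RASSF4 at 0.980, MIR22HG, the host transcript of a microRNA, at 0.980 and ITGA1, the integrin alpha 1 chain, at 0.978. ITGA1 stood at 22.6 and 20.7 CPM at 3 days and 23.3 and 22.2 CPM at 7 days, against 70.4 and 77.3 CPM in control. NTRK2 stood at 4.52 and 6.16 CPM at 3 days and 8.06 and 4.42 CPM at 7 days, against 17.9 and 19.8 CPM in control. SPPL2A differed less in size, with 108.5 and 111.1 CPM at 3 days, against 142.7 and 142.8 CPM in control. Of the 8158 genes, 84 had an r over 0.9. Among the other 8 receptor genes the highest r with IL2RA was 0.65, in IL13RA1, and the rest lay between -0.33 and 0.27.

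**Figure D5:**
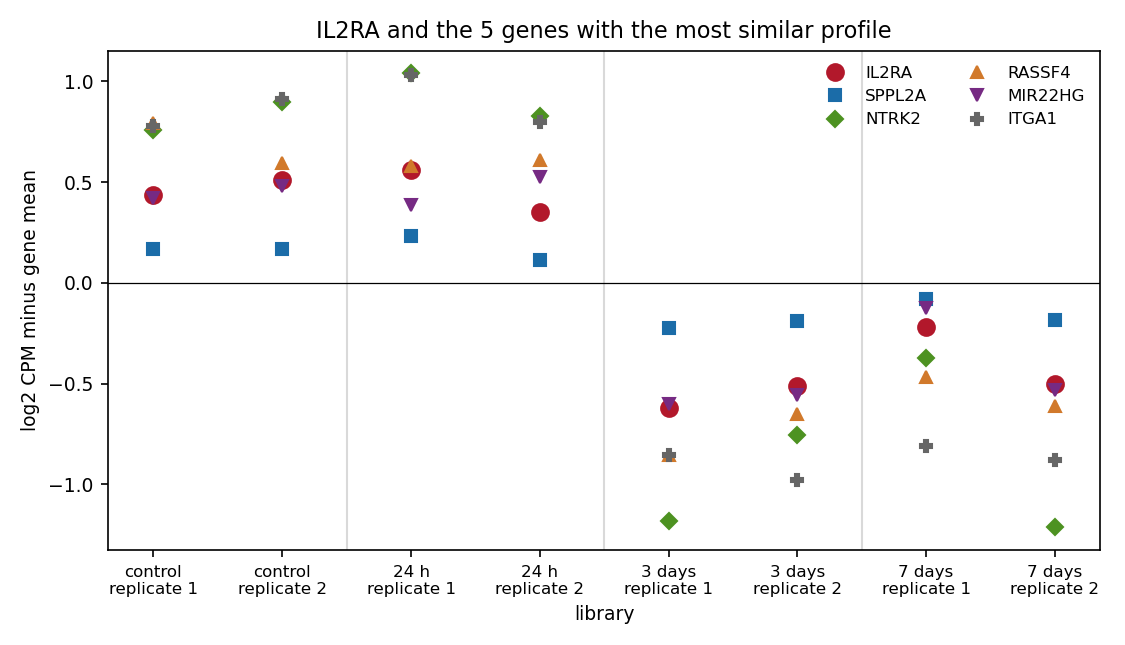
Log2 CPM minus the gene's mean over 8 libraries (y axis) in each library (x axis). Shown are IL2RA and the 5 genes with the highest Pearson r with it among the 8158 compared. In all 6 genes the 4 early libraries lie above 0 and the 4 late libraries below, and ITGA1 and NTRK2 have the widest gap. The 5 genes were chosen by this correlation in the same 8 libraries, so a split like that of IL2RA follows from the choice. All 4 late libraries lay below all 4 early ones in 7.43% of all genes tested.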

How the data were processed

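RNA was sequenced from 8 libraries, 2 for each of 4 groups. The deposited tables hold whole-number read counts per gene symbol for 23710 genes, with replicates not pooled. The submitters' processing notes list, without roles, Trim Galore, Bowtie2 and SAMtools, version 1.8.1 of DESeq2, version 3.2.3 of R, and the builds GRCh37 and hg19. How reads were counted, with which strand setting and annotation, is not given in the sources used here. Summary entries that name no gene took 42.6% to 57.5% of the reads and were left out. Counting error is given by exact Poisson intervals at 95%.

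Genes were filtered with filterByExpr (minimum count 10, minimum total 15), scaled by TMM and tested with edgeR 4.0.16 under R 4.3.3, quasi-likelihood fit, with all 8 libraries and a coefficient per group. P-values were adjusted by Benjamini-Hochberg over all 12536 genes in each of 6 comparisons and in the joint test, with a threshold of 0.05. Log2 CPM used a prior count of 2. Intervals of fold changes use the standard error derived from the F statistic. The script was tested on simulated data. Alternatives were DESeq2 1.42.0, limma-voom (limma 3.58.1), RLE and upper-quartile scaling, other filters, robust empirical Bayes, only the 2 groups compared, a replicate block and leaving out each library.

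Named genes were all 9 receptors, the 4 genes of each list with the smallest joint p, and the 5 most like IL2RA. A result that this rule names is not reported here. IL2RB, IL6ST and IL10RB were named as partner chains, and the marker genes, SOCS7, IL17RA, IL17RB and RELA after their values were seen. The members and lists were chosen with earlier results of these data known. Promoter bases come from RefSeq, where all 9 receptor genes matched.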

Additional observations from a re-analysis of the deposited data

How the results depend on the processing

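IL2RA kept its direction at 3 days against control in all 21 alternatives (log2 fold change -1.11 to -0.99), and at 7 days (-0.99 to -0.68), with adjusted p from 0.0615 to 1.00 and from 0.126 to 1.00, so it never passed in a comparison of 2 groups. With a library left out, IL2RA was -1.11 to -0.998 at 3 days, -0.99 to -0.68 at 7 days and -0.13 to 0.088 at 24 h. Its joint adjusted p was 0.0433 in DESeq2 on the genes edgeR tested. The cause was not tested.

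Where edgeR called 0 genes, DESeq2 on all genes called 9 at 3 days and 15 at 7 days against control, 19 and 22 against 24 h, and 65 in the joint test. DESeq2 on the genes edgeR tested called 13, 18, 19, 33 and 68, and edgeR with no filter on low counts called 11, 16, 21, 25 and 67. Without the late libraries numbered 2, a fit chosen after seeing the data, it called 313, 362, 812, 695 and 419, but IL2RA did not pass (adjusted p = 0.0615 at 3 days); without those numbered 1, 0 genes were called in these 5 tests. The cause was not tested.

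Replicate numbers did not pair the libraries across all groups: the correlation of replicate differences over genes was -0.60 between 24 h and control, 0.34 between 3 days and control, 0.32 between 7 days and control, -0.32 between 3 days and 24 h and -0.31 between 7 days and 24 h. Between 7 days and 3 days it was 0.81, so the numbers went together in those 2 groups. With a replicate block IL2RA was -1.05 at 3 days (adjusted p = 0.775), and 0 genes were called. With the 24 h numbers crossed, chosen after seeing the data, 6, 5, 19, 10 and 15 genes were called in the 5 tests.

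The results that reversed had values near 0 or were IL4R, IL6R, IL7R, IL13RA1 or IL27RA. IL21R at 24 h was -0.0084 with the block and -0.010 with upper-quartile scaling, and IL2RG at 7 days was 0.00146 in DESeq2 on all genes. Without the late libraries numbered 1, IL10RA at 7 days was -0.066, IL27RA at 3 days -0.079, IL2RG 0.054 at 3 days and 0.0899 at 7 days, IL4R at 7 days -0.19 and IL6R 0.50 at 3 days and 0.24 at 7 days. Without those numbered 2, IL21R was 0.21 at 3 days and 0.13 at 7 days, IL27RA at 7 days 0.11, IL4R at 3 days 0.35 and IL7R at 3 days -0.48. With a library left out, the ranges at 24 h, 3 days and 7 days were -0.081 to 0.18, -0.00146 to 0.31 and -0.071 to 0.29 for IL10RA, -0.088 to 0.089, -0.30 to 0.20 and -0.34 to 0.13 for IL21R, -0.027 to 0.079, -0.14 to 0.045 and -0.096 to 0.085 for IL2RG, -0.65 to 0.054, -0.66 to 0.34 and -0.20 to 0.36 for IL4R, and -0.17 to 0.39, -0.90 to 0.49 and -0.75 to 0.24 for IL6R. They were -0.37 to 0.71, -1.20 to -0.04 and -1.30 to -0.61 for IL13RA1, -0.71 to -0.15, -0.11 to 0.45 and -0.48 to 0.15 for IL27RA, and -0.49 to 0.77 for IL7R at 3 days. IL13RA1 and IL7R did not reach the stricter filter of 50 counts in 2 libraries and have no value there. Depth limits IL7R and IL13RA1 most, with 13 to 57 reads.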
